A study of Mus musculus with 2 samples.

Results

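The 31 genes described here encode enzymes, membrane proteins and the proton pump of the lysosome. They were fixed as a list of symbols, and each matched 1 of the 27998 gene rows of the count tables. 13 are hydrolases and other soluble proteins of the lysosomal lumen (Hexa, Gusb, Man2b1, Asah1, Neu1, Tpp1, Ppt1, Glb1, Naglu, Gaa, Acp5, Psap and Grn), 7 are membrane proteins (Lamp1, Lamp2, Cd63, Cd68, Laptm5, Scarb2 and Mcoln1), and 11 belong to the vacuolar proton pump, the V-ATPase (Atp6v0b, Atp6v0c, Atp6v0d2, Atp6v0e, Atp6v1a, Atp6v1b2, Atp6v1e1, Atp6v1f, Atp6v1h, Atp6ap1 and Atp6ap2).

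Lysosomes break down lipid, protein, glycan and nucleic acid delivered by endocytosis, phagocytosis and autophagy. The V-ATPase, built from a membrane sector (V0) that carries protons and a cytosolic sector (V1) that hydrolyses ATP, acidifies the lumen in which the hydrolases work. Macrophages (MØs) are rich in lysosomes, and those of obese adipose tissue take up lipid from adipocytes and dead cells.

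Single-cell RNA-seq was performed on live CD45+ cells sorted from perigonadal visceral adipose tissue (VAT), with 1 library per group and the number of mice in each not given. Male C57BL/6J mice, 6 weeks old on arrival, were acclimated for 2 weeks. Both groups then received a high-fat diet (60% of kcal from fat, 0.3% cholesterol) for 24 weeks together with a weekly dose (5 mg/kg) of antisense oligonucleotide that targets the LDL receptor. The obese group fed ad libitum, and the caloric restriction (CR) group was given 70% of that intake of the same diet for 2 weeks after obesity was established. The deposited label of the CR sample instead calls the restriction life-long. A lean library was not analysed here.

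The obese library held 5795 barcodes and 42948242 UMIs, and the CR library 3562 barcodes and 19696476 UMIs, with 28 barcodes present in both. After a filter on depth and mitochondrial share, 5262 and 2987 cells remained, with medians of 6740.5 and 4802 UMIs. The 31 genes held 1.20% of UMIs in obese and 1.00% in CR. Not every sorted cell was a leukocyte by its markers: 4997 of the kept obese cells and 2358 of the CR cells were, and the rest carried fibroblast (109 and 306 cells), endothelial (23 and 212), erythroid (132 and 80) or pericyte (1 and 31) markers.

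Cells were gated into classes on marker genes that include none of the 31. In obese and CR, respectively, there were 515 and 77 lipid-associated MØs (Gpnmb, Trem2, Mmp12, Lpl, Cd9), 1032 and 158 Apoe C1q MØs, 255 and 44 resident MØs (Lyve1, Folr2, Cbr2), 246 and 563 Fcgr4-high MØs, 139 and 85 patrolling monocytes, 186 and 75 classical monocytes, 306 and 94 type 1 dendritic cells, 175 and 95 type 2 dendritic cells, 560 and 370 T cells, 149 and 68 NK cells and 204 and 227 B cells. Clusters built without the 31 genes and the other lysosomal lists described below gave 82.3% of cells the same name. Cathepsins and other lysosomal genes outside those lists were not left out. Levels are the UMIs of all cells of a class added up and given as CPM, the usual scaling to the class's own total, from 3′ tags and not scaled by gene length. With 1 library per group there is no replicate error and no test: the 95% intervals, exact Poisson for a level, exact binomial for a share and exact conditional for a ratio, cover counting error only. Ratios are log2 with 5 CPM added to each side, while their intervals are of the ratio without it. A gene was measured in a comparison with at least 20 UMIs in both arms together and 50 CPM in 1 arm, and 1.5-fold (0.58 on the log2 scale) is the size used for counting.

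The promoters of several members share a short word. TCACGTG, the core of an element recognised by the TFEB family of transcription factors, was searched on both strands in the 250 bases before each RefSeq start (GRCm38.p6, the build of the files). It was present for 7 of the 27 members with a window, against 968 of 27025 genes (3.58%) and 1028 of 32851 windows (3.13%). The shorter word CACGTG, contained in it, occurred for the same 7 members and for 6.86% of all genes. The stretches around it are shown because they are a feature of sequence that 7 members share; capitals mark TCACGTG or its reverse complement CACGTGA, and each stretch is written 5′ to 3′ on the gene's strand.
Lamp1: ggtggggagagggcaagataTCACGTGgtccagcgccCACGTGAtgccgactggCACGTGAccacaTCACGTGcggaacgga
Atp6v1a: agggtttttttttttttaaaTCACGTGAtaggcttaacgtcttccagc
Gaa: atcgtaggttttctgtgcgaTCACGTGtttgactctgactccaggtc
Glb1: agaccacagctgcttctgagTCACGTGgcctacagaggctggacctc
Atp6v0b: gtgcgcgggggTCACGTGgggtcggcgca
Mcoln1: ggtcgcgcttgTCACGTGttcagttcagg
Naglu: caaccttcaggTCACGTGgcccgaggtcg

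The Lamp1 stretch lies at chr8:13159079-13159160 on the plus strand and holds 4 copies, 62 to 10 bases before the start. That of Atp6v1a is at chr16:44139364-44139411 on the minus strand, Gaa at chr11:119267802-119267848 on the plus strand, Glb1 at chr9:114401009-114401055 on the plus strand, and Atp6v0b at chr4:117887349-117887377 on the minus strand. Mcoln1 is at chr8:3500436-3500464 and Naglu at chr11:101070009-101070037, both on the plus strand and both overlapping an annotated exon. Atp6v0b and Mcoln1 have 2 separate stretches each, of which 1 is shown. A match is a description of these letters and not of factor binding. Among classes with at least 50 cells, Lamp1, Atp6v1a, Atp6v0b and Naglu were highest in lipid-associated MØs in both libraries. Glb1 and Mcoln1 were highest there in CR alone, and Gaa in neither. Of all members, with or without the word, 15 were highest there in both libraries. Whether members with the word differ from the others in this was not tested. For Lamp1 the obese intervals of lipid-associated and resident MØs overlapped (1188 and 1178 CPM). The CR resident MØs, with under 50 cells, held more Lamp1 than the lipid-associated MØs. Naglu, Glb1, Gaa and Mcoln1 were all sparse. Atp6v1h, Atp6v1b2, Atp6v0d2 and Asah1 had no window.

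Lipid-associated MØs held the highest summed level of all 3 groups of members in both libraries. The 31 genes together stood at 20739 CPM (20628 to 20851) in obese lipid-associated MØs and at 20798 CPM (20500 to 21099) in CR. Apoe C1q MØs stood at 13283 and 13051 CPM, resident MØs at 13369 and 15660 CPM, and Fcgr4-high MØs at 10479.9 and 9732 CPM. Monocytes and type 1 dendritic cells were close to the last, between 9398 and 10940.5 CPM, and T cells were lowest at 4039.97 and 3664 CPM.

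**Figure D1:**
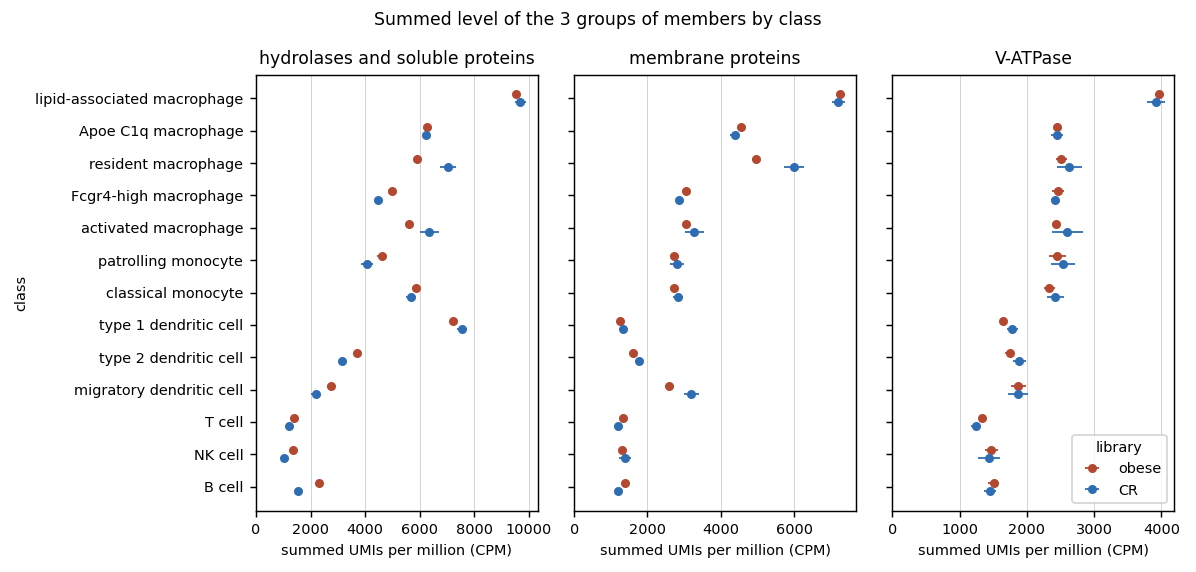
Summed CPM (x axis, from 0) of the hydrolases and soluble proteins, the membrane proteins and the V-ATPase members in each class (y axis), obese in red and CR in blue, with exact 95% Poisson intervals. Lipid-associated MØs lie to the right in all 3 panels, and type 1 dendritic cells are high only in the hydrolase panel.

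The 3 groups of members had different profiles. In obese, the hydrolases ranged from 9536 CPM in lipid-associated MØs and 7204 CPM in type 1 dendritic cells to 1382 CPM in T cells and 1349.9 CPM in NK cells. The membrane proteins ranged from 7241 CPM in lipid-associated MØs to 1256 CPM in type 1 dendritic cells, which thus ranked second for hydrolases and last for membrane proteins among the 13 classes plotted. The V-ATPase varied least: it was at 3962 CPM in lipid-associated MØs, between 2333 and 2513 CPM in every other MØ and monocyte class, and at 1332 CPM in T cells. In CR, type 1 dendritic cells were again second for hydrolases (7551 CPM), but T and B cells lay below them for membrane proteins (1209 and 1198 against 1330.1 CPM). The CR V-ATPase sums were 3916 CPM in lipid-associated MØs, 2413 to 2627 CPM in the other MØ and monocyte classes and 1237 CPM in T cells.

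**Figure D2:**
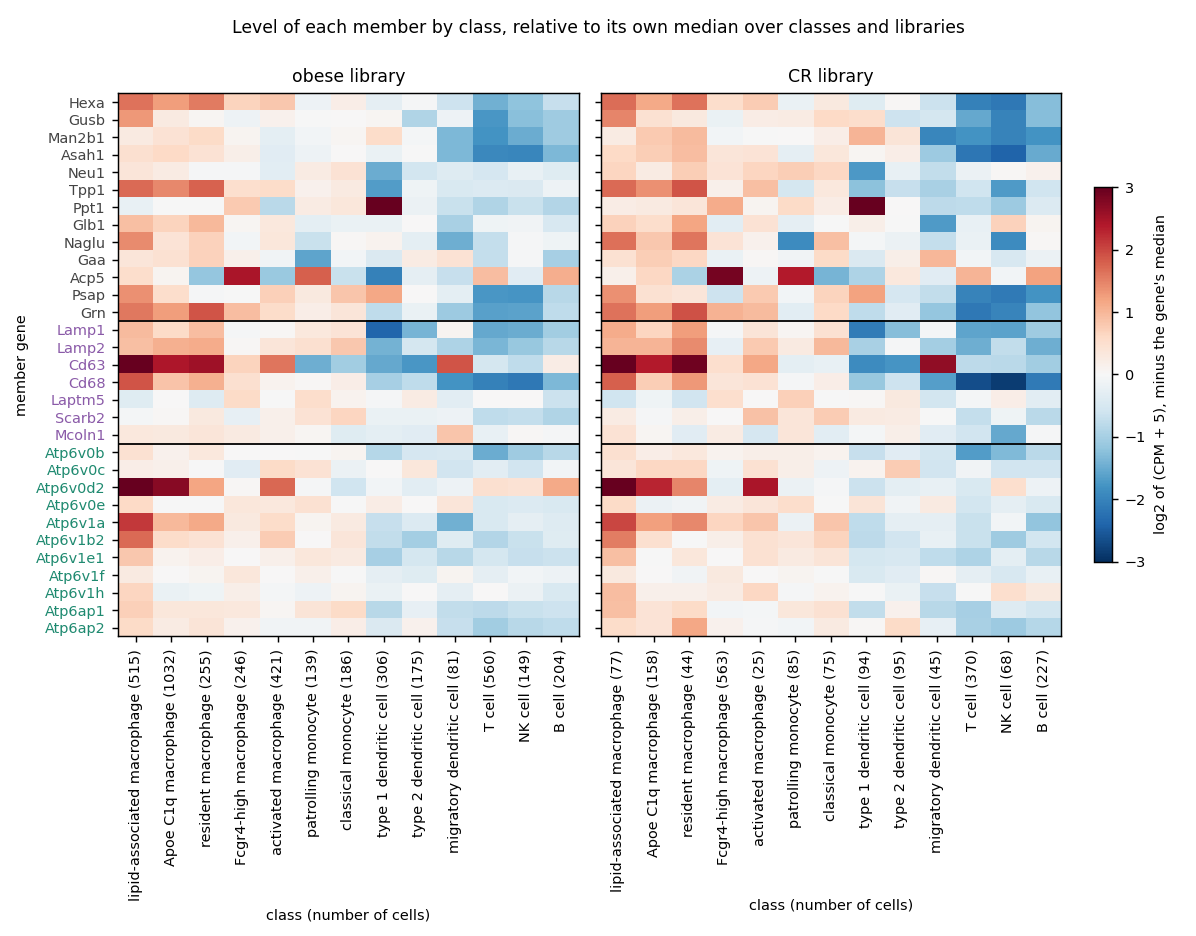
Each member (rows; grey hydrolases and soluble proteins, purple membrane proteins, green V-ATPase) in each class (columns, cell numbers in brackets) of the obese (left) and CR (right) library, coloured by log2 of CPM plus 5 minus the gene's own median over all columns; colours stop at -3 and 3. Red is concentrated in the MØ columns on the left of each panel, and Ppt1 in type 1 dendritic cells and Acp5 in Fcgr4-high MØs stand out from the rest.

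Among classes with at least 50 cells, 16 members in obese and 20 in CR were highest in lipid-associated MØs, 15 of them in both. The CR count is over fewer classes, since resident and activated MØs and migratory dendritic cells each had under 50 cells there. The highest class was the same in both libraries for 19 of the 31 members. The matching shares over all genes were not computed, so these counts are not read as particular to the members.

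Of the soluble proteins, Psap (prosaposin, the precursor of the saposins that help degrade sphingolipids; chr10:60277627-60302597, plus strand) held the most member UMIs in nearly every class. It stood at 5843 CPM (5784 to 5902) in obese and 5809.6 CPM (5653 to 5970) in CR lipid-associated MØs, and at 5068 and 5244 CPM in type 1 dendritic cells. It made up 28.2% and 27.9% of member UMIs in lipid-associated MØs but 50.2% and 49.2% in type 1 dendritic cells. Grn (progranulin, a lysosomal glycoprotein precursor) followed another order, with 1578 CPM (1519 to 1639) in obese resident MØs, 1277 CPM in lipid-associated MØs and 1024 CPM in Apoe C1q MØs. In CR the same 3 classes held 1616, 1328 and 1015 CPM, and no lymphocyte class other than the small innate lymphoid and plasma cell groups exceeded 247 CPM in either library.

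Ppt1 (palmitoyl-protein thioesterase, which removes fatty acids from proteins; chr4:122836242-122859175, plus strand) stood at 922 CPM (889.5 to 956) in obese and 873 CPM (816 to 932) in CR type 1 dendritic cells. Among classes with at least 50 cells the next were Fcgr4-high MØs at 185 and 234 CPM, and type 2 dendritic cells had only 94.1 and 106 CPM, so the level separated the dendritic cell classes. Acp5 (tartrate-resistant acid phosphatase, best known from osteoclasts; chr9:22126727-22135711, minus strand) stood at 494 CPM (456 to 536) in obese and 655 CPM (628 to 683) in CR Fcgr4-high MØs. Patrolling monocytes followed at 312 and 465 CPM, whereas classical monocytes held 52.4 and 29.6 CPM. Acp5 was thus high in Fcgr4-high MØs and patrolling monocytes and low in the other monocyte class. An antisense gene overlaps 6.75% of its exon bases.

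Hexa (the alpha subunit of beta-hexosaminidase) was highest in lipid-associated MØs at 963 and 1001 CPM, with 919.9 CPM in obese resident MØs, whose interval (875 to 967) overlaps. Gusb (beta-glucuronidase) stood at 375 and 416 CPM in lipid-associated MØs and at or below 227 CPM in every other class. Man2b1 (lysosomal alpha-mannosidase), Asah1 (acid ceramidase) and Tpp1 (tripeptidyl peptidase) had no single leading class: over classes with at least 50 cells, the intervals of the first and the second overlapped in both libraries. Man2b1 was as high in type 1 dendritic cells (277 and 383 CPM) as in Apoe C1q MØs (255 and 326 CPM), whereas Tpp1 was at 9.57 and 14.9 CPM in type 1 dendritic cells and at 154 and 168 CPM in resident MØs. Neu1 (sialidase), Glb1 (beta-galactosidase), Naglu (a heparan sulfate hydrolase) and Gaa (acid alpha-glucosidase, which degrades glycogen) were sparse: none exceeded 118 CPM in any class. Tmppe overlaps 5.49% of the exon bases of Glb1 on the same strand, and antisense genes overlap 12.8% of those of Hexa, 11.8% of Atp6v0b and 9.31% of Lamp1.

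Of the membrane proteins, Cd63 (a tetraspanin of late endosomes; chr10:128900989-128912822, plus strand) and Cd68 (macrosialin, a heavily glycosylated MØ protein; chr11:69664213-69666153, minus strand) differed most between lipid-associated and Apoe C1q MØs. Cd63 stood at 3195 CPM (3152 to 3239) in obese and 3166 CPM (3051 to 3285) in CR lipid-associated MØs, at 1568 and 1497 CPM in Apoe C1q MØs, and at 454 and 408 CPM in Fcgr4-high MØs. It was low in patrolling monocytes (101 and 231 CPM) and type 2 dendritic cells (81.2 and 79.7 CPM) but stood at 1076 and 1822 CPM in migratory dendritic cells, the latter from 45 cells. The annotation lists a Cd63 pseudogene, and how reads shared with it were counted is not known.

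Cd68 was at 1909 CPM (1876 to 1943) and 1786 CPM (1700 to 1876) in lipid-associated MØs and at 921 and 847 CPM in Apoe C1q MØs. Lamp1, a main glycoprotein of the lysosomal membrane, was less class-specific, with 1188 and 1334 CPM in lipid-associated and 1178 and 1486 CPM in resident MØs, and it stood at 114 and 139.9 CPM in type 1 dendritic cells. Lamp2 followed a similar course, with 387 and 485 CPM in resident MØs and 62.7 and 88.3 CPM in type 1 dendritic cells.

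Laptm5, a transmembrane protein of lysosomes in haematopoietic cells, differed from the other membrane proteins. It stood at 1023 and 966 CPM in Fcgr4-high MØs and 986 and 1116 CPM in patrolling monocytes, and at only 528 and 448 CPM in lipid-associated MØs. T cells held 683 and 658 CPM, and Laptm5 was the first member by UMIs in T cells (16.9% and 17.95% of member UMIs) and in NK cells (16.7% and 20.4%). Scarb2, the receptor that carries beta-glucocerebrosidase to the lysosome, was highest in classical monocytes at 117 and 127 CPM, with overlapping intervals to the next class. Mcoln1, the lysosomal calcium channel TRPML1, stayed at or below 21.6 CPM in every class (13.0 and 14.6 CPM in lipid-associated MØs) and passed the measurement filter in none of the comparisons.

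Atp6v0d2, the d2 form of the V0 subunit d known from osteoclasts and MØs (chr4:19876841-19922605, minus strand), had the widest range of the members detected in every class with at least 50 cells, its highest level being 82.0 times its lowest in obese and 76.6 times in CR (39.4 and 43.1 times for Cd63, the next). These folds are without added CPM. The lowest levels of Atp6v0d2 rest on 8 UMIs in obese classical monocytes and 6 UMIs in CR type 1 dendritic cells, so the folds are uncertain. In lipid-associated MØs it stood at 513 CPM (495 to 531) in obese and 456 CPM (413 to 502) in CR. In Apoe C1q MØs it was at 108 and 78.0 CPM, in resident MØs at 33.4 and 42.0 CPM, in Fcgr4-high MØs at 12.4 and 8.82 CPM, and in classical monocytes at 6.26 and 11.5 CPM. Activated MØs, with 421 and 25 cells, held 51.3 and 87.5 CPM. The order from lipid-associated to Apoe C1q to resident to Fcgr4-high MØs was the same in both libraries, although the CR intervals of Apoe C1q (62.3 to 96.5) and resident MØs (22.4 to 71.8, from 13 UMIs) overlap.

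The remaining V-ATPase members varied less. Atp6v1a and Atp6v1b2, the catalytic A and the B subunit of V1, were highest in lipid-associated MØs at 233 and 217 CPM and at 385 and 343 CPM, their intervals lying above that of the next class with at least 50 cells in both libraries. Atp6v1e1, a stalk subunit, was also highest there, at 298 and 319 CPM. Atp6v0b, a V0 subunit, and the accessory proteins Atp6ap1 and Atp6ap2 differed 3.03 to 4.58-fold between their highest and lowest class of at least 50 cells. Atp6v0e and Atp6v1f, small subunits, and Atp6v1h, a regulatory subunit of V1, varied least: Atp6v1f lay between 277 and 535 CPM in all 15 obese classes. Atp6v0c, the main proton-carrying subunit, was listed at 0 to 7.59 CPM throughout, too low to compare; the annotation lists pseudogenes (Atp6v0c-ps1 and Atp6v0c-ps2), and how shared reads were counted is not known, so this level is uncertain.

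Lipid-associated and Apoe C1q MØs were then compared within each library, that is, MØs with a high and a lower level of the lipid-associated markers. In obese, 26 members were measured, 10 of them were at least 1.5-fold higher in lipid-associated MØs and 0 lower. Of all genes measured, 11.7% were higher and 9.42% lower by that size. In CR, 27 members were measured, with 11 higher and 0 lower, against 11.1% and 11.2% of all genes. The median log2 ratio of the members was 0.36 in obese and 0.46 in CR, and that of all measured genes 0.14 and 0.08. The same 10 members were past the size in both libraries, and the direction was the same in 24 of the 26 members measured in both (19 above and 5 below 0). The same agreement was not counted over all genes, so it is not read as particular to the members.

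Of these 10, 6 were V-ATPase subunits. Atp6v0d2 was 513 against 108 CPM in obese (log2 ratio 2.19, interval 2.14 to 2.36) and 456 against 78.0 CPM in CR (2.47, 2.21 to 2.90). Atp6v1b2 was 385 against 169 CPM (1.16) and 343 against 163 CPM (1.05), and Atp6v1a was 233 against 102 CPM (1.15) and 217 against 125 CPM (0.78). Subunits of both sectors were thus among them, and Atp6v1e1, Atp6v1h and Atp6v0e were past the size by less, with log2 ratios of 0.71, 0.85 and 0.62 in obese and 0.91, 0.75 and 0.74 in CR. Atp6v1f, by contrast, stood at 513 against 425 CPM in obese and 521 against 425 CPM in CR.

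The other members past the size in both were Cd68 (log2 ratios 1.05 and 1.07), Cd63 (1.02 and 1.08), Gusb (1.03 and 1.00) and Psap (0.84 and 0.91). Naglu was past it in CR (53.8 against 27.5 CPM) and was not measured in obese, where it stood at 44.9 against 19.7 CPM. Man2b1 was on the other side in both libraries, at 226 against 255 CPM in obese and 224 against 326 CPM in CR, and Asah1, Ppt1, Lamp2 and Laptm5 were also below 0 in both, Lamp2 in CR by only 364 against 366 CPM. The members were not higher as a block, although all 10 measured V-ATPase members lay above 0 in both libraries. Summed over the groups, lipid-associated MØs held 1.52 times the hydrolase level, 1.59 times the membrane protein level and 1.62 times the V-ATPase level of Apoe C1q MØs in obese, and 1.56, 1.64 and 1.60 times in CR. Glb1, Gaa, Mcoln1 and Atp6v0c were too low to be measured in obese.

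**Figure D3:**
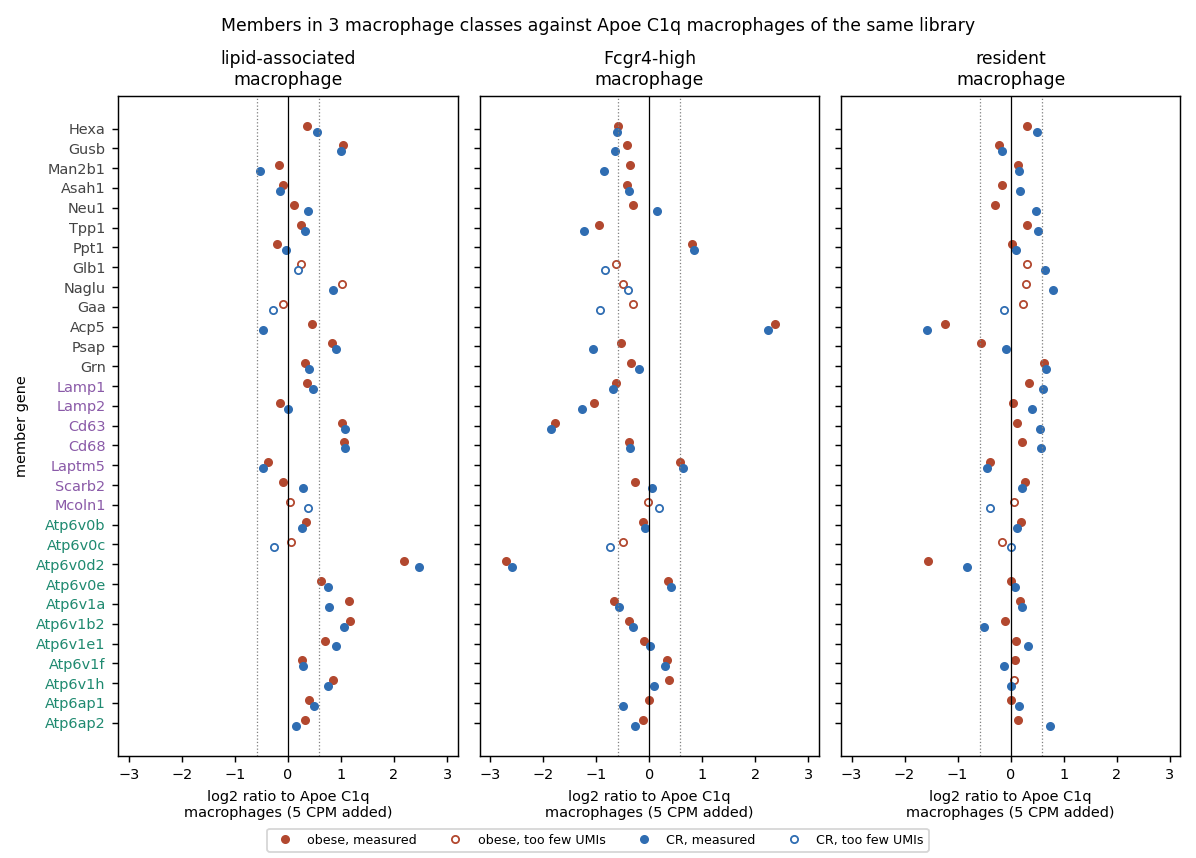
Log2 ratio (x axis) of each member (rows) in lipid-associated, Fcgr4-high and resident MØs (panels) to Apoe C1q MØs, obese in red and CR in blue; filled points passed the measurement filter, open points had too few UMIs, and dotted lines mark 1.5-fold. Atp6v0d2 lies far to the right in the first panel and far to the left in the second, where Acp5 lies far to the right.

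Cells of the 2 classes differ in depth, with medians of 11263 and 10514 UMIs in lipid-associated and 6991.5 and 6568.5 UMIs in Apoe C1q MØs, and 33.8% and 26.0% of lipid-associated cells lay near a limit of the gate. After every cell was thinned to 1500 UMIs, the median cell held 28 member UMIs (quartiles 22 to 35) in obese and 31 (25 to 36) in CR lipid-associated MØs, against 19 (15 to 23) and 18 (14 to 22.75) in Apoe C1q MØs. T cells held 5 and 5. Cells were gated at their full depth and thinned afterwards, and the part of depth in the result was not tested.

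Atp6v0d2 can take the place of the d1 form, and the 2 forms were counted side by side. Atp6v0d2 made up 71.0% (exact binomial 69.7 to 72.3) of the d UMIs in obese and 70.9% (67.0 to 74.6) in CR lipid-associated MØs. The share was 42.8% (40.6 to 45.0) and 35.4% (29.4 to 41.8) in Apoe C1q MØs, 13.3% and 19.4% in resident MØs, 8.15% and 5.62% in Fcgr4-high MØs and 4.26% and 5.51% in classical monocytes. Atp6v0d1 itself stood at 209 and 187 CPM in lipid-associated and 145 and 142 CPM in Apoe C1q MØs. Between these 2 classes the d2 share thus moved with Atp6v0d2 and not with a fall of Atp6v0d1. In resident MØs, where the share was lower, Atp6v0d1 was higher than in Apoe C1q MØs, at 217 and 174.5 CPM.

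In thinned cells, an Atp6v0d2 UMI was found in 44.9% (40.5 to 49.3) of obese and 45.5% (34.1 to 57.2) of CR lipid-associated MØs, and in 10.9% and 8.86% of Apoe C1q MØs. Lymphocytes, taken as cells that should lack this form, gave 2.86% and 0.541% (T cells), 2.68% and 5.88% (NK cells) and 3.43% and 1.76% (B cells), with median depths before thinning of 3316.5 and 2654.5 UMIs in T cells. Resident MØs gave 3.14% (1.36 to 6.09) and 6.82% (1.43 to 18.7, 3 of 44 cells) and Fcgr4-high MØs 2.03% (0.663 to 4.68) and 1.24% (0.501 to 2.54). In obese the Fcgr4-high share was below those of all 3 lymphocyte classes and is read as background there. The obese resident share was below that of B cells but above those of T and NK cells. Its interval holds all 3, so it cannot be told apart from background by this measure. Without thinning the shares were 87.8% and 72.7% in lipid-associated and 30.5% and 24.1% in Apoe C1q MØs. Lipid-associated cells with an Atp6v0d2 UMI held a median of 30 UMIs of the other 30 members in obese and 32 in CR, and cells without one 26 and 25.5.

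Cells of the lipid-associated, Apoe C1q and resident gates were also ordered by their score on the lipid-associated markers, which include none of the 31, and cut into 5 groups of equal size within each library. From the lowest to the highest score, the other 30 members together were at 11688, 12445, 13386, 16425 and 21178 CPM in obese and at 11955, 13406, 14083, 15936 and 21668 CPM in CR. Atp6v0d2 was at 17.9, 34.0, 102, 277 and 580 CPM in obese and at 19.98, 18.1, 104, 224 and 519 CPM in CR, whereas Atp6v0d1 was at 152 and 218 CPM in the lowest and highest obese groups. Psap was at 2423 and 6192 CPM in the same groups, but Laptm5 was at 621 and 516 CPM and Asah1 at 314 and 306 CPM. The sum was thus higher mainly in the upper 2 groups, and Laptm5 and Asah1 did not follow it. The median depth also differed, from 6116 to 12564 UMIs per cell in obese and from 6021 to 10576 in CR, and its part in the result was not tested.

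**Figure D4:**
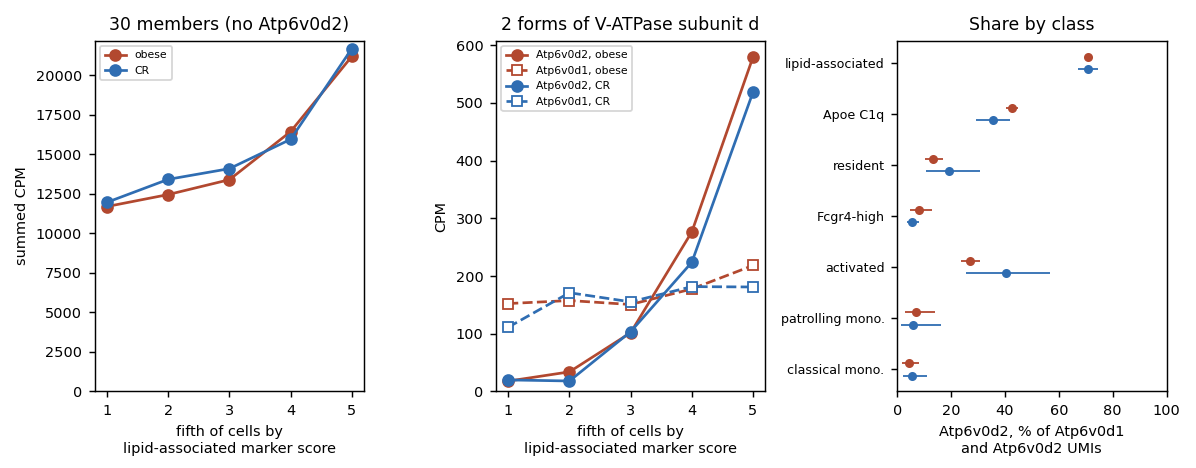
Summed CPM of the other 30 members and CPM of Atp6v0d2 and Atp6v0d1 in 5 groups of cells ordered by the lipid-associated marker score, and the Atp6v0d2 share of d UMIs (percent) by class with exact 95% binomial intervals, obese in red and CR in blue. Atp6v0d2 reaches 580 and 519 CPM in the highest group, and its share is near 71% in lipid-associated MØs of both libraries.

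Fcgr4-high MØs, which made up 4.92% of leukocytes in obese and 23.9% in CR, held less of most measured members than Apoe C1q MØs. In obese, 26 members were measured, with 7 at least 1.5-fold lower and 2 higher, against 12.1% and 22.0% of all genes. In CR, 26 were measured, with 9 lower and 3 higher, against 12.9% and 20.9%. The median log2 ratio of the members was -0.35 and -0.34, and that of all measured genes 0.24 and 0.20. Trimmed-mean scaling moves every log2 ratio of this comparison, for members and all other genes alike, by -0.22 in obese and -0.15 in CR. Under it 12 members are past the size on the lower side in obese. The all-gene shares above are without that scaling. None was computed under it or for genes lower in both libraries.

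The 6 lower in both libraries were Atp6v0d2, Cd63, Lamp2, Tpp1, Lamp1 and Hexa. Atp6v0d2 was 12.4 against 108 CPM in obese (log2 ratio -2.70) and 8.82 against 78.0 CPM in CR (-2.59). Cd63 was 454 against 1568 CPM (-1.78) and 408 against 1497 CPM (-1.86), and Lamp2 was 181 against 376 CPM (-1.04) and 149 against 366 CPM (-1.27). Psap was 1477 against 3083 CPM in CR (-1.06) and 2254 against 3269 CPM in obese. Acp5 was on the opposite side, 494 against 91.3 CPM in obese (2.38, 2.28 to 2.60) and 655 against 135 CPM in CR (2.24, 2.04 to 2.53), followed by Ppt1 (0.80 and 0.84). The V-ATPase sum was nearly equal to that of Apoe C1q MØs, at 1.01 and 0.99 times, although Atp6v0d2 was not.

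Resident MØs held 1.01 and 1.20 times the summed level of Apoe C1q MØs. In obese, 25 members were measured, with 1 higher (6.9% of all genes) and 2 lower (4.5%). In CR, 28 were measured, with 5 higher (12.7%) and 2 lower (8.25%), from 44 resident cells. Grn was higher in both, at 1578 against 1024 CPM (log2 ratio 0.62) and 1616 against 1015 CPM (0.67). In obese it was the 1 member past the size, and 0 were without the cell filter, under TMM scaling and in clusters. Atp6v0d2 and Acp5 were lower in both, Acp5 at 35.7 against 91.3 CPM (-1.24) and 42.0 against 135 CPM (-1.57). Atp6ap2 (333 against 196 CPM), Lamp1 (1486 against 967 CPM), Naglu and Glb1 were higher in CR alone, and the intervals for Naglu and Glb1 include 0.

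Against T cells, MØs (the lipid-associated, Apoe C1q, resident and Fcgr4-high gates together) held 3.94 times the summed level in obese and 3.40 times in CR. Of 26 members measured in each library, 22 in obese and 23 in CR were at least 1.5-fold higher, against 27.7% and 28.8% of all genes, and the median log2 ratio was 1.94 and 1.70 against -0.05 and -0.04. The hydrolases differed most (5.32 and 4.73 times), the membrane proteins less (4.15 and 3.32 times) and the V-ATPase least (2.27 and 2.15 times). Cd63 (2119 against 197 CPM in obese, 1162 against 163 CPM in CR), Cd68 (1296 against 121 CPM, 907 against 76.7 CPM) and Grn (1160 against 134 CPM, 1020 against 92.4 CPM) were among the most different. Laptm5 was not, at 632 against 683 CPM in obese and 788 against 658 CPM in CR, and Acp5 was 127 against 167 CPM in obese but 430 against 179 CPM in CR. The pooled MØs differed in make-up between the libraries, with 246 Fcgr4-high and 515 lipid-associated cells in obese and 563 and 77 in CR. Acp5 stood at 494 and 655 CPM in Fcgr4-high MØs. The part of this mix in the differences between the libraries was not tested.

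The lymphocyte levels were set beside those of the C1q genes, which lymphocytes do not express and which reach them as free RNA or in doublets. C1q stood in T cells at 9.54% (obese) and 4.93% (CR) of their MØ level, in NK cells at 10.5% and 4.45%, and in B cells at 16.8% and 14.2%. Members present only at that share would sum to 1519 CPM of the 4039.97 CPM found in obese T cells and to 616 of 3664 CPM in CR, and 27 and 30 of the 31 members had an interval above that share of their MØ level. The same count over all genes was not made. The share covers RNA from MØs only and not that of other cells, such as CR fibroblasts with 4305 CPM of the membrane members. A level above it thus does not by itself show expression by the lymphocyte. In obese T cells Cd63, Cd68 and Atp6v0d2 did not exceed it, with 197 against 202, 121 against 124 and 18.6 against 23.6 CPM, and are read as background there. In CR T cells Cd63 (163 against 57.3 CPM) and Cd68 (76.7 against 44.8 CPM) did exceed it, as did Cd63 in CR NK cells (161 against 51.7 CPM). Both the C1q share and the pooled MØ level of Cd63 (2119 CPM in obese and 1162 CPM in CR) were lower in CR, while Cd63 in T cells stood at 197 and 163 CPM. B cells did not exceed it in either library for Cd63 (333 against 357 CPM in obese, 137 against 165 in CR) and Cd68 (196 against 218, 112 against 129).

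CR was compared with obese class by class. In the 7 monocyte, MØ and dendritic cell classes with at least 50 cells in both libraries, 167 member values were measured, of which 4 (2.40%) were at least 1.5-fold higher in CR and 2 (1.20%) lower, against 6.83% and 2.62% of all genes. The count of 4 was 19 in thinned cells, 8 without the cell filter, 8 without the low-count filter, 7 by the mean of per-cell values, and 2 under TMM scaling or with 20 CPM added. The count of 2 was 4 under TMM scaling and without the low-count filter, 1 with 20 CPM added, and 0 by the mean of per-cell values and in clusters. In lipid-associated MØs 0 of 27 and in Apoe C1q MØs 0 of 26 measured members were past the size in either direction. The all-gene shares of 6.83% and 2.62% are pooled over the 7 classes. Shares for these 2 classes alone or under the alternatives are not given, so these counts have no all-gene share of their own beside them. The summed level of lipid-associated MØs was 20739 CPM in obese and 20798 CPM in CR (log2 ratio 0.00, interval -0.02 to 0.03), and that of Apoe C1q MØs 13283 and 13051 CPM (-0.03). With 1 library per group, a difference between mice cannot be told apart from one between diets.

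The 6 values past the size lay in 4 classes. In patrolling monocytes Cd63 was 231 CPM in CR and 101 CPM in obese (log2 ratio 1.15, 0.67 to 1.71), and in classical monocytes it was 245 and 136 CPM (0.83, 0.52 to 1.17). Gusb was 227 and 149 CPM in classical monocytes (0.59), and Acp5 was 109 and 70.4 CPM in type 2 dendritic cells (0.59). Both monocyte classes thus had more Cd63 in CR. On the lower side, Psap was 1477 in CR and 2254 CPM in obese Fcgr4-high MØs (-0.61, -0.68 to -0.54), and Acp5 was 29.6 and 52.4 CPM in classical monocytes (-0.73, -1.66 to -0.06). The last turned to 0.039 with clusters in place of gates, and neither value was past the size in clusters or by the mean of per-cell values.

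**Figure D5:**
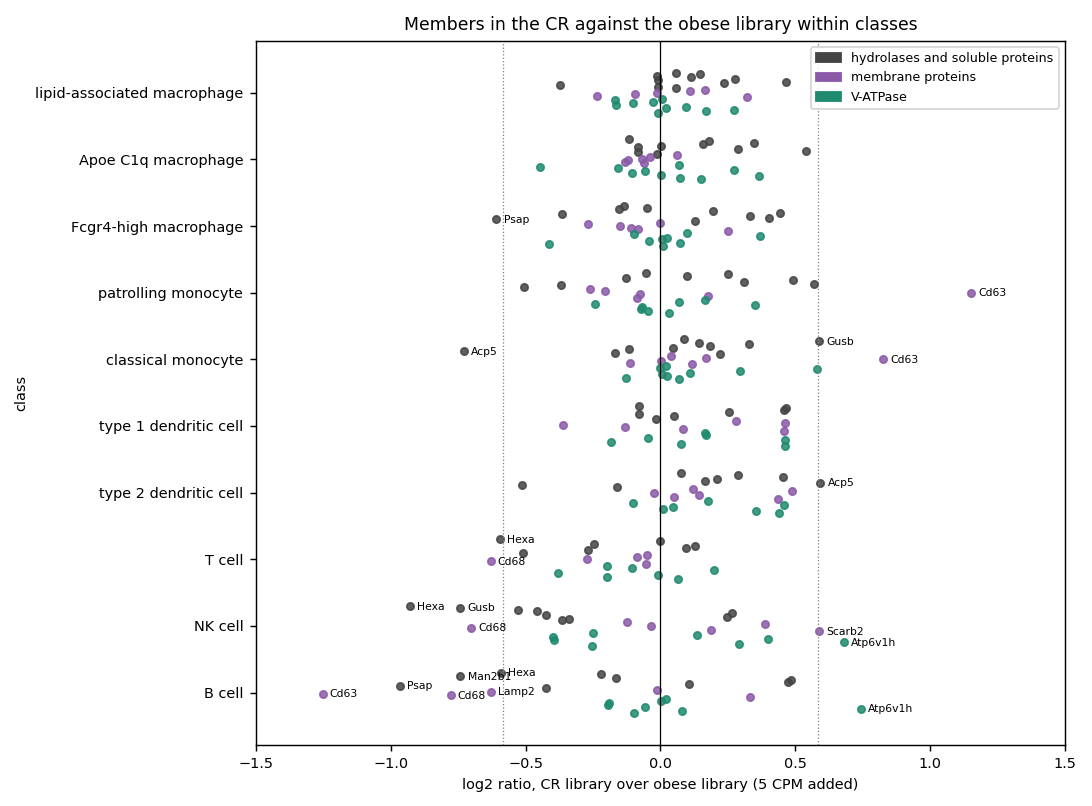
Log2 ratio of CR to obese (x axis, 5 CPM added) of each measured member in 10 classes (y axis), coloured by group as grey hydrolases and soluble proteins, purple membrane proteins and green V-ATPase; dotted lines mark 1.5-fold, and members past it are named. Lipid-associated and Apoe C1q MØs have no member past the lines, and B cells have the most, on the lower side.

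In T, NK and B cells, 64 member values were measured, with 3 (4.69%) higher in CR and 11 (17.2%) lower, against 10.4% and 6.12% of all genes. B cells gave 6 of the lower values, led by Cd63 (137 in CR and 333 CPM in obese, log2 ratio -1.25) and Psap (651 and 1277 CPM, -0.97). For Cd63 the ratio was -0.15 in clusters and -0.37 without the cells of highest doublet score. The others were Cd68, Man2b1, Lamp2 and Hexa in B cells, Cd68 and Hexa in T cells, and Hexa, Gusb and Cd68 in NK cells. The higher values were Atp6v1h in NK and B cells and Scarb2 in NK cells. In NK cells, with 68 cells in CR, the intervals of Gusb, Cd68, Scarb2 and Atp6v1h include 0. The count of 11 was 1 with clusters in place of gates, 3 without the cells of highest doublet score and 2 by the mean of per-cell values. The C1q share of T and NK cells was also lower in CR than in obese (9.54% and 4.93% in T cells), and its part in the result was not tested.

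Over all leukocytes, the 31 genes stood at 12046 CPM (obese) and 9707 CPM (CR), a log2 ratio of -0.31. In such a sum, fewer cells of a class and less RNA per cell cannot be told apart. With the CR levels of each of 19 classes weighted by the obese shares of UMIs the sum was 12012 CPM (log2 ratio -0.00), and with the obese levels at the CR shares it was 10155 CPM (-0.25). These sums describe the 2 libraries and give no cause. Lipid-associated MØs were 10.3% of leukocytes in obese and 3.27% in CR, and Apoe C1q MØs 20.7% and 6.70%. Atp6v0d2 was 134 CPM in obese and 50.7 CPM in CR (-1.32), Cd63 was 1212 and 693 CPM (-0.80), and Acp5, highest in the Fcgr4-high MØs, was 101 and 271 CPM (1.38).

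Other genes of the lysosome were followed from lists that hold none of the 31. Of 12 further V-ATPase subunits, 6 were measured between lipid-associated and Apoe C1q MØs in each library, with 4 higher and 0 lower in both, beside 11.7% and 11.1% of all genes higher in obese and CR, and with medians of 0.75 and 0.69. Atp6v0a1, a V0 subunit, was 130 against 46.3 CPM in obese (log2 ratio 1.40) and 97.4 against 43.2 CPM in CR (1.09), and Atp6v1c1 was 192 against 78.9 CPM (1.23) and 165 against 81.7 CPM (0.97). Of 20 further hydrolases and cofactors, 8 were measured in each, with 1 and 0 higher, Gla (alpha-galactosidase) being 65.6 against 30.8 CPM in obese and 63.8 against 43.2 CPM in CR. Of 18 further membrane proteins, 4 and 5 were measured, with 0 and 1 higher. The mannose 6-phosphate tagging and sorting genes had 2 and 3 measured of 9, with 0 higher, and M6pr, a receptor for tagged enzymes, was 226 against 175 CPM in obese. Of 13 genes of nutrient sensing at the lysosome 7 were measured in each, with 1 higher in each (Lamtor3, 131 against 79.9 CPM and 131 against 83.6 CPM), and of 5 transcription factors (Tfeb and its relatives, and Zkscan3) 0 were measured in either library. Counts of 1 among 7 or 8 genes are near the all-gene shares of 11.7% and 11.1%.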

How the data were processed

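Per the labels and the study's methods, the authors prepared 10x v2 3′ libraries and counted UMIs per gene and barcode with Cell Ranger on mm10. The deposited counts are not normalized, and they hold 1 obese and 1 CR library of live CD45+ cells from perigonadal VAT. The number of mice per library is not given in the sources used here.

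Cells with at least 200 genes and with mitochondrial share and UMI total within 3 median absolute deviations above the library median were kept. No doublets were removed in the main analysis, and an alternative left out the 5% of cells with the highest doublet score. The marker lists held 146 markers (2 had no row). Cells were gated on the mean standardised level of each list, with a level of 0.3, a margin of 0.1 and at least 2 markers detected. The Apoe C1q and mesothelial lists were not scored in the gates, and Apoe C1q MØs were the MØs below the resident and lipid-associated limits. Named clusters from a graph (30 neighbours, 30 components, 2000 genes, without the members and the other lysosomal lists) were the alternative. UMIs were summed per class and library, scaled to CPM, and compared as log2 ratios with 5 CPM added. Genes needed 20 UMIs in both arms together and 50 CPM in 1 arm, and classes 50 cells. Intervals are at 95% and cover counting error only. At 0 UMIs they still have an upper limit, as for Atp6v0c in obese NK cells (6.03 CPM). Per-cell values were thinned to 1500 UMIs (seed 1), and no cell was too shallow. With 1 library per group no test was made, and libraries are not replicates. Scripts used Python 3.11.15, numpy 2.4.6, scipy 1.17.1, pandas 2.3.3, scikit-learn 1.9.0, python-igraph 0.11.9, matplotlib 3.10.9 and edgeR 4.0.16 in R 4.3.3 (TMM factors only), and were tested on simulated data.

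The members and gene lists were chosen with earlier results of these data known, and the gate limits after the data were seen. Named genes were the 3 members of each group highest in MØs, Atp6v0d2, Acp5, Mcoln1 and the 3 largest changes of each comparison, and of each other list the 2 largest. Further members past 1.5-fold were named after their values were seen. Promoters are from the RefSeq table (GRCm38.p6), gene positions from GENCODE. Alternatives changed the cell filter, scaling, thinning, gates, clusters, doublets, added CPM, low-count filter and fold.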

Additional observations from a re-analysis of the deposited data

Results flagged for a closer look

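For 3 members the ratio of CR to obese was past 1.5-fold in opposite directions in 2 classes, and the difference between the classes was not tested, since each library is 1 sample. Gusb was lower in CR in NK cells (log2 ratio -0.74, from 7 UMIs in CR and 36 in obese, and -0.12 with clusters in place of gates) and higher in classical monocytes (0.59). Acp5 was lower in classical monocytes (-0.73, but 0.039 with clusters in place of gates, so that the directions were then not opposite) and higher in type 2 dendritic cells (0.59). Cd63 was lower in B cells (-1.25, and -0.15 in clusters), where it did not exceed the C1q-based background in either library, and higher in patrolling monocytes (1.15).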

How the results depend on the processing

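No paired analysis was possible because each group has 1 library and no result comes from a test. No replicate could be left out for the same reason, and scaling alternatives could not be applied to the thinned medians. Of 819 values of 63 named ratios under 14 alternatives, 783 stayed within 1.5-fold and 29 moved by more. The other 7 changed direction, a label given only to ratios past 1.5-fold in the main analysis. Smaller ratios that changed sign were counted by the size of the move alone. Of 224 values of 18 summary results, 156 stayed within their limit. The cause of each change was not tested. TMM scaling shifted every log2 ratio of CR to obese by -0.19 to -0.02 (median -0.10).

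With 2-fold in place of 1.5-fold, members higher in lipid-associated MØs were 6 (obese) and 4 (CR), lower in Fcgr4-high MØs 3 and 5, higher in resident MØs 0 and 0, other lysosomal genes 2 and 1, and values in CR 1 higher and 0 lower (myeloid) and 1 lower (lymphocytes). The obese lipid-associated sum (20739 CPM) was 22206 without the cell filter, 21228 at 5 median absolute deviations, 21641 under TMM, 24954 over totals without ribosomal, mitochondrial and haemoglobin genes, 19994 per cell, 19601 thinned, 19652 in clusters, 20462 without Gpnmb and 21963 with stricter gates.

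The count of 4 myeloid values higher in CR was 8 without the cell filter, 2 under TMM, 7 per cell, 19 thinned, 2 with 20 CPM added and 8 without the low-count filter. The 2 lower were 4 under TMM, 0 per cell, 0 in clusters, 1 with 20 CPM and 4 without the low-count filter. The 11 lower lymphocyte values were 2 per cell, 6 thinned, 1 in clusters, 7 with stricter gates, 3 without high doublet scores, 6 with 20 CPM and 17 without the low-count filter. Members lower in obese Fcgr4-high MØs were 12 under TMM, with no all-gene share at that scaling. The 1 member higher in obese resident MØs was 0 without the cell filter, under TMM and in clusters, and the 5 in CR were 3 in clusters. Other lysosomal genes (6 in each library) were 11 and 11 with stricter gates, 12 and 10 without the low-count filter, and in CR 12 without the cell filter, 3 thinned and 3 with 20 CPM.

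The leukocyte ratio (-0.31) was -0.20 without the cell filter, -0.30 at 5 deviations, -0.46 under TMM, -0.30 per cell and -0.33 thinned. At obese shares (-0.00) it was 0.089, 0.0055, -0.10, 0.0070 and 0.0072 under the same settings, -0.034 over the reduced totals, 0.056 in clusters, -0.061 with stricter gates and 0.0054 without high doublet scores. The thinned median of 28 in obese lipid-associated MØs was 31 without the cell filter, 26 in clusters and 30 with stricter gates, and that of 19 in Apoe C1q MØs was 20 without the cell filter.

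Some ratios past 1.5-fold in the main analysis changed direction. In clusters, CR over obese for Cd68 was 0.29 in B, 0.31 in NK and 0.087 in T cells. It was 0.18 for Hexa in T cells and 0.039 for Acp5 in classical monocytes. Without high doublet scores Cd68 in NK cells was 0.27, and thinned, Naglu in CR resident against Apoe C1q MØs was -3.10. Smaller ratios that moved by more than 1.5-fold also changed sign. CR over obese for Atp6v0d2 in Apoe C1q MØs (-0.45) was 0.26 per cell and 0.28 thinned. For Grn in T cells (-0.51) it was 0.13 in clusters. Acp5 in CR lipid-associated against Apoe C1q MØs (-0.47) was 0.33 without the cell filter.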
